A study of Rattus norvegicus with 17 samples.

Results

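Sites where RNA polymerase II (RNAPII) was bound without trimethylation of histone H3 lysine 4 (H3K4me3) were examined in oligodendrocyte-lineage cells. The RNAPII peaks of the 2 stages analysed were merged wherever they overlapped or touched, which gave 1540 regions. Of these, 256 shared no base with an H3K4me3 peak of any stage, and they are called unmarked regions below. The other 1284 met H3K4me3 at 1 stage or more and are called marked regions. The unmarked regions were thus selected on measured RNAPII and H3K4me3 peaks, so their RNAPII stage, width and distance from H3K4me3 are descriptions and were not tested. H3K27Ac, Olig2, Brg1 and H3K9me3 had no part in the selection.

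Chromatin immunoprecipitation with sequencing was done on wild-type Sprague-Dawley rat cells isolated from the cortex at postnatal day 2, with 17 libraries in all and a single library per target and stage. The growth medium of the cells of all stages held PDGF-AA at 10 ng/ml with bFGF at 20 ng/ml. Oligodendrocyte precursor cells (OPC) were mitogen-treated. The iOL and mOL stages were T3-treated, in a differentiation medium with thyroid hormone T3 at 15 nM and ciliary neurotrophic factor at 10 ng/ml. The RNAPII lists were of OPC and iOL, and those of Brg1, Olig2, H3K27Ac, H3K4me3 and H3K9me3 of all 3 stages. The protocol names the isolated cells iOL whatever their stage, so stages here follow the labels of the samples. The duration of differentiation was not given in the sources used, and expression of marker genes was not analysed here.

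RNAPII is the enzyme that transcribes protein-coding genes. H3K4me3 marks the promoters of active and poised genes, so RNAPII away from it is met along gene bodies and at active enhancers, many of which are transcribed into short unstable RNAs. Acetylation of H3 lysine 27 (H3K27Ac) marks active enhancers and promoters, whereas H3K9me3 marks heterochromatin and silenced repeats. Olig2 is the basic helix-loop-helix transcription factor that specifies the oligodendrocyte lineage. Brg1 is the ATPase of SWI/SNF complexes, which remodel nucleosomes.

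Each deposited list held peak positions alone, with no height, score or read number, so the depth of the libraries is unknown. The lists differed in length. The OPC and iOL lists of RNAPII held 332 and 1425 peaks, those of Brg1 between 452 (OPC) and 5465 (iOL), Olig2 between 2759 (mOL) and 25787 (iOL), H3K27Ac between 19130 (OPC) and 35268 (mOL), and H3K9me3 between 827 (iOL) and 7103 (mOL). With no replicate library, no difference between stages could be tested. Intervals in brackets are exact Clopper-Pearson 95% intervals of a share or Newcombe 95% intervals of a difference between shares. They treat regions as independent and cover counting error only. Where a count is 0, the share that 3 counts would give is printed as its limit, followed by the exact upper bound. Positions are on rn4. Gene names and sequences are not given, because the annotation at hand was of another assembly.

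The unmarked regions held 62 of the 332 OPC peaks (18.7%, 14.6 to 23.3) and 221 of the 1425 iOL peaks (15.5%, 13.7 to 17.5). RNAPII was called in iOL alone at 194 of the 256 (75.8%), in OPC alone at 35 (13.7%) and at both stages at 27 (10.5%). Among marked regions these shares were 79.2%, 6.31% and 14.5%. In both sets the predominance of iOL went with the longer iOL list. Widths ran from 254 to 4398 bp with a median of 1085.5 bp, beside 1071.5 bp for marked regions, so the unmarked set did not consist of narrower calls. At the edge of the selection, the 5 unmarked regions nearest to H3K4me3 lay 45, 75, 128, 158 and 195 bp from it. The 5 marked regions with the least overlap shared 8, 14, 27, 113 and 140 bases with it. Of the marked regions, 1073 carried H3K4me3 at all 3 stages and 118 in mOL alone, a stage whose RNAPII was not analysed here.

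H3K27Ac divided the unmarked regions into 2 groups of similar size. Of the 256, 104 met an H3K27Ac peak in OPC (40.6%, 34.6 to 46.9), 117 in iOL (45.7%, 39.5 to 52.0) and 135 in mOL (52.7%, 46.4 to 59.0). At marked regions H3K27Ac was close to universal, with 93.1%, 94.5% and 98.5%. Over all 1540 RNAPII regions the shares were 84.4%, 86.4% and 90.9%. The difference, unmarked minus marked, was -52.5 points in OPC (-58.5 to -46.2), -48.8 points in iOL (-54.9 to -42.5) and -45.8 points in mOL (-51.9 to -39.7). In the unmarked set the share rose a little from stage to stage, and the H3K27Ac lists also grew longer. With the widest 19130 peaks of each list the shares were 40.6%, 43.8% and 49.6%. The OPC list held 19130 peaks in all, so its share could not change. Lists of equal number need not cover equal lengths of the genome, so these values cannot separate the rise from list size. What lay behind the rise was not tested.

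At least 1 stage was acetylated at 136 unmarked regions (53.1%, 46.8 to 59.4), called acetylated below, and 120 had no H3K27Ac peak at any stage. Most of the 136 were acetylated throughout: 94 at all 3 stages, 23 in iOL and mOL, 9 in OPC and mOL, 9 in mOL alone and 1 in OPC alone. Of the 194 unmarked regions with RNAPII called in iOL alone, 88 carried H3K27Ac in OPC (45.4%) and 100 carried it in iOL (51.5%). Of the 1017 marked regions called in iOL alone, 92.7% carried it in OPC and 93.7% in iOL. Where H3K27Ac was called in iOL it covered a median of 97.6% of the unmarked region and the whole region at 57 of 117 (48.7%). At marked regions the median was 89.5%, and 27.2% were wholly covered. Few of the acetylated unmarked regions were edges of an acetylated peak that reached H3K4me3 elsewhere. This held for 3 of 104 in OPC, 4 of 117 in iOL and 5 of 135 in mOL.

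**Figure D1:**
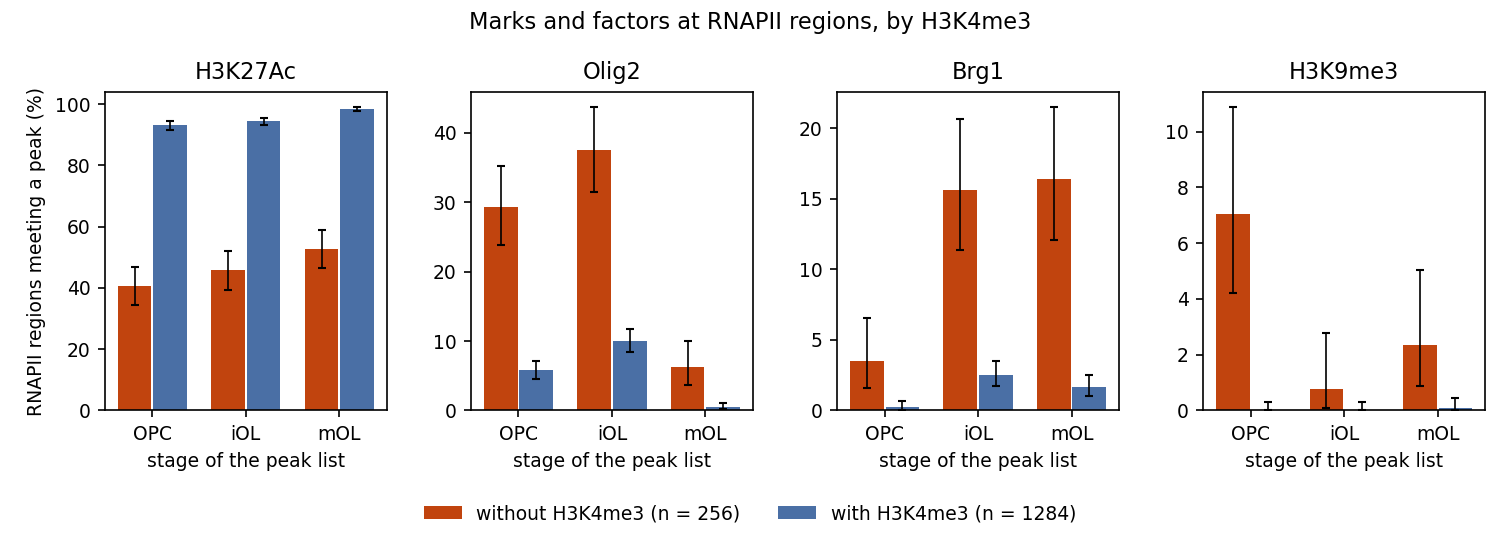
Share of RNAPII regions (%, linear axis from 0, a scale for each panel) that met a peak of H3K27Ac, Olig2, Brg1 or H3K9me3 in OPC, iOL and mOL. Orange bars are the 256 unmarked and blue bars the 1284 marked regions, and error bars are exact 95% intervals. H3K27Ac is lower at unmarked regions at each stage (40.6 to 52.7% against 93.1 to 98.5%), and Olig2, Brg1 and OPC H3K9me3 are higher.

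Olig2 was several times more frequent at unmarked than at marked regions. It was called at 75 unmarked regions in OPC (29.3%, 23.8 to 35.3), 96 in iOL (37.5%, 31.6 to 43.7) and 16 in mOL (6.25%, 3.61 to 9.95). The corresponding shares of marked regions were 5.76%, 9.97% and 0.467%, and over all RNAPII regions 9.68%, 14.5% and 1.43%. The difference was 23.5 points in OPC (18.1 to 29.5), 27.5 points in iOL (21.6 to 33.8) and 5.78 points in mOL (3.35 to 9.45). Of the 75 unmarked regions with Olig2 in OPC, 69 had RNAPII called in iOL alone. Where RNAPII was called in OPC, Olig2 in OPC was at 6 of 62 unmarked regions (9.68%) and 3.00% of marked ones. That difference was 6.68 points (0.803 to 16.7). Together 99 unmarked regions had Olig2 at some stage. Of these, 58 had it in OPC and iOL, 15 at all 3 stages, 23 in iOL alone, 2 in OPC alone and 1 in mOL alone. The low mOL share went with the short mOL list. In iOL the centres of the Olig2 peak and of the RNAPII region lay a median of 253 bp apart, and 47 of 96 were within 250 bp.

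Brg1 followed the same direction at lower shares. It was called at 9 unmarked regions in OPC (3.52%, 1.62 to 6.57), 40 in iOL (15.6%, 11.4 to 20.7) and 42 in mOL (16.4%, 12.1 to 21.5). Marked regions had 0.234%, 2.49% and 1.64%, and all RNAPII regions 0.779%, 4.68% and 4.09%. The difference was 3.28 points in OPC (1.57 to 6.32), 13.1 points in iOL (9.07 to 18.1) and 14.8 points in mOL (10.6 to 19.8). Each of the 9 unmarked regions with Brg1 in OPC kept it in iOL and mOL. A further 24 had Brg1 in iOL and mOL, 7 in iOL alone and 9 in mOL alone. Of the 49 unmarked regions with Brg1 at some stage, 48 had RNAPII in iOL alone, and 1 had it in OPC alone. The 9 with Brg1 in OPC all had RNAPII called in iOL alone. Where RNAPII was called in OPC, Brg1 of any stage was at 1 of 62 unmarked and 3 of 267 marked regions. That difference was 0.489 points, with an interval that included 0 (-2.02 to 7.50). The OPC Brg1 list was the shortest of the 3, so the smaller OPC count and its length cannot be told apart.

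Most unmarked regions that met Brg1 also met Olig2 at some stage, although overlap between the peaks of both factors was not measured. Olig2 of the same stage was present at 9 of the 9 Brg1 regions in OPC and at 39 of 40 in iOL. In mOL it was present at 12 of 42, and 40 of those 42 had Olig2 at some stage. Of the 49 unmarked regions with Brg1 at some stage, 2 had no Olig2 at any stage, against 14 of the 43 such marked regions. H3K27Ac, Olig2 and Brg1 were found together in iOL at 36 unmarked regions. Brg1 and Olig2 shared at least 1 stage at 39 regions, and 5 had both at all 3 stages. The widest of the 39 were chr19:30603731-30605419 (1689 bp) and chr1:44839320-44840967 (1648 bp). The chr19 region carried Brg1 and H3K27Ac at all 3 stages and Olig2 in OPC and iOL, and was 115.9 kb from the nearest H3K4me3 peak. The chr1 region carried Olig2 in iOL, Brg1 in iOL and mOL and H3K27Ac at all 3 stages, at 79.3 kb from H3K4me3.

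Other regions of this group showed how the factors varied by stage. At chr4:81222857-81224378 all of Brg1, Olig2 and H3K27Ac were called in OPC, iOL and mOL. At chr8:49027251-49028728 Olig2 was present at all 3 stages, whereas Brg1 and H3K27Ac appeared in iOL and mOL. At chr5:22749872-22751269, 217.3 kb from H3K4me3, Brg1 was called in iOL alone, beside Olig2 in OPC and iOL and H3K27Ac throughout. The region chr11:81472893-81474286 had the same pattern but was the unmarked region nearest to H3K4me3, at 45 bp. All of the 10 widest regions of the group had RNAPII in iOL alone.

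**Figure D2:**
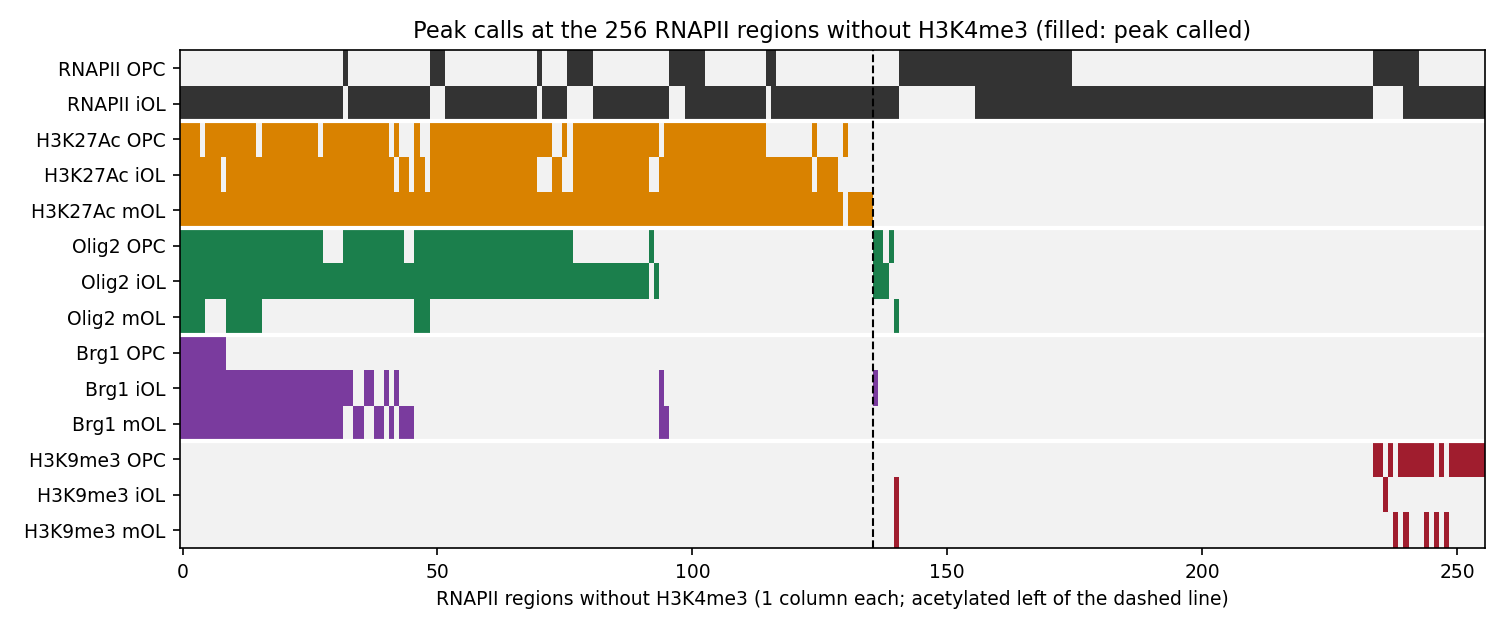
Peak calls at each of the 256 unmarked regions, 1 column per region and 1 row per library. A filled cell means that a peak was called, and columns are ordered by the calls, with the 136 acetylated regions left of the dashed line. Olig2 and Brg1 lie almost wholly among the acetylated regions (94 of 99 and 48 of 49), and H3K9me3 lies wholly among the others (23 of 23).

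The factors separated sharply along the acetylation split. Olig2 of any stage was present at 94 of the 136 acetylated unmarked regions (69.1%, 60.6 to 76.8) and at 5 of the 120 without H3K27Ac (4.17%, 1.37 to 9.46), a difference of 65.0 points (55.2 to 72.5). Brg1 was present at 48 of 136 (35.3%, 27.3 to 43.9) and at 1 of 120 (0.833%, 0.0211 to 4.56), a difference of 34.5 points (26.1 to 42.8). Acetylated regions were somewhat wider, with a median of 1171.5 bp against 1019 bp, and what part width has in the difference was not tested. Without chromosome X and without the longest run of regions, both described below, the differences were 64.1 points for Olig2 (53.2 to 71.9) and 34.0 points for Brg1 (24.7 to 42.4). The excess over marked regions was also present among acetylated regions alone. Of the 1271 acetylated marked regions 10.9% had Olig2 and 3.38% had Brg1, lower than the acetylated unmarked regions by 58.2 points (49.8 to 65.5) and 31.9 points (24.3 to 40.3).

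By combination, 46 unmarked regions carried H3K27Ac, Olig2 and Brg1 at some stage and 48 carried H3K27Ac and Olig2. Another 2 carried H3K27Ac and Brg1, and 40 carried H3K27Ac alone. These were 18.0%, 18.8%, 0.781% and 15.6% of unmarked regions, beside 2.26%, 8.57%, 1.09% and 87.1% of marked ones. H3K9me3 alone was found at 22 unmarked regions and 1 marked region. Olig2 without H3K27Ac was at 5 unmarked regions, of which 1 also had Brg1 and 1 also had H3K9me3. At 93 regions (36.3%, 30.4 to 42.5) no peak of these 4 targets was called at any stage, beside 12 of the 1284 marked regions (0.935%). The median width of the 93 was 1043 bp, close to that of the whole set. Their gap to the nearest H3K27Ac peak had a median of 20938 bp, and 9 of them lay within 1 kb of one.

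Unmarked regions with RNAPII at both stages were mostly without the other targets. Of the 27 unmarked regions called at both stages, 22 had no H3K27Ac at any stage, and none had Olig2 or Brg1. A count of 0 of 27 allows a share of up to 11.1% by the limit of 3 counts (exact bound 12.8%). Marked regions called at both stages had Olig2 at 12 of 186 (6.45%) and Brg1 at 1 of 186 (0.538%). The unmarked minus marked differences, -6.45 points (-10.9 to 6.30) and -0.538 points (-2.98 to 11.9), had intervals that included 0. Among marked regions called at both stages, 182 of 186 were acetylated (97.8%), and the unmarked minus marked difference was -79.3 points (-89.8 to -60.9). Of the 22 regions 8 lay on chromosome X, and their median width was 859.5 bp. The 5 acetylated ones were wider, from 1275 to 4398 bp.

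The acetylated unmarked regions were next set against acetylated sites that also lacked H3K4me3 but had no RNAPII peak of the same stage. Of 10305 iOL H3K27Ac peaks that met no H3K4me3 peak of any stage, 122 met an unmarked region called in iOL (1.18%, 0.984 to 1.41), and 10168 met no iOL RNAPII peak. Olig2 in iOL was present at 86 of the 122 (70.5%, 61.6 to 78.4) and at 63.2% of the 10168 (62.2 to 64.1). The difference of 7.30 points had an interval that included 0 (-1.37 to 14.7). Brg1 in iOL was present at 43 of the 122 (35.2%, 26.8 to 44.4) and at 25.4% of the 10168 (24.5 to 26.2), a difference of 9.88 points (1.93 to 18.7). Width moved with this result: the median H3K27Ac peak was 1629 bp with RNAPII and 800.0 bp without. Among H3K27Ac peaks at least 1629 bp wide the Brg1 shares were 39.3% of 61 and 43.9% of 1532, and the difference turned to -4.59 points (-16.1 to 8.19). For Olig2 the shares were then 88.5% and 86.4%.

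In OPC only 16 of 7739 H3K27Ac peaks without H3K4me3 met an unmarked region called in OPC (0.207%, 0.118 to 0.336). Olig2 in OPC was present at 4 of the 16 (25%, 7.27 to 52.4) and at 63.0% of the 7717 that met no OPC RNAPII peak. The difference, with minus without RNAPII, was -38.0 points (-52.8 to -13.5). Among peaks at least as wide as the median of the 16, it was 3 of 8 against 83.4% of 662, a difference of -45.9 points (-69.8 to -13.8). Brg1 in OPC was at 0 of the 16 and 4.30% of the 7717, which 16 peaks cannot separate (-4.78 to 15.1 points). Whether the OPC and iOL results for Olig2 differ from each other was not tested, since each stage had 1 library.

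H3K9me3, by contrast, was met by 23 unmarked regions at some stage (8.98%, 5.78 to 13.2) and by 1 of the 1284 marked regions. By stage it was present at 18 unmarked regions in OPC (7.03%, 4.22 to 10.9), 2 in iOL (0.781%) and 6 in mOL (2.34%), beside 1.17%, 0.13% and 0.455% of all RNAPII regions. The OPC difference from marked regions was 7.03 points (4.48 to 10.8), and without chromosome X the OPC share of unmarked regions was 3.91%. No acetylated unmarked region had H3K9me3, and 0 of 136 allows a share of up to 2.21% (exact bound 2.68%), whereas 23 of the 120 others had it (19.2%, 12.6 to 27.4). With chromosome X and the longest run left out this was 13 of 80 (16.2%, 8.95 to 26.2). H3K9me3 was called in OPC alone at 16 of the 23. The OPC list held fewer H3K9me3 peaks than the mOL list (3149 against 7103). Without chromosome X the shares of unmarked regions were 3.91% in OPC and 2.17% in mOL. The difference between the stages was not tested.

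Most unmarked regions were far from H3K4me3. The gap to the nearest H3K4me3 peak had a median of 33356 bp, with quartiles of 8124 and 93152 bp and a maximum of 1040 kb. Within 1 kb there were 11 regions (4.30%), within 5 kb 36 (14.1%), within 10 kb 69 (26.95%), within 50 kb 152 (59.4%) and within 100 kb 194 (75.8%). Whether a region lay in a gene body or between genes could not be told without an rn4 annotation. The nearest H3K4me3 region held RNAPII itself for 5 of the 69 unmarked regions within 10 kb (7.25%, 2.39 to 16.1). It did so for 26 of the 187 farther ones (13.9%, 9.29 to 19.7), beside 8.97% of all 17241 merged H3K4me3 regions. The interval of the nearer share included 8.97%, and that of the farther share lay above it.

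Regions with different marks lay at different distances. The median gap was 27249.5 bp for acetylated regions, 34529 bp for those with Olig2, 65194 bp for those with Brg1, 77598 bp for those with H3K9me3 and 37704 bp for those with none of the 4 targets. Brg1 was scarce near H3K4me3: 4 of the 69 regions within 10 kb had it at some stage (5.80%, 1.60 to 14.2) against 45 of the 187 beyond (24.1%, 18.1 to 30.8), a near minus far difference of -18.3 points (-25.8 to -8.37). Within the acetylated regions the difference was larger, 4 of 42 near against 44 of 94 far (9.52% and 46.8%), or -37.3 points (-48.8 to -21.4). Olig2 in acetylated regions was at 57.1% near and 74.5% far, a difference of -17.3 points (-34.1 to -0.533). Over all unmarked regions the near and far shares of H3K27Ac, Olig2 and H3K9me3 differed by intervals that included 0.

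The lower share of Brg1 near H3K4me3 was also measured at sites without iOL RNAPII. The iOL H3K27Ac peaks with no H3K4me3 peak and no iOL RNAPII peak were divided in the same way. Brg1 in iOL was at 15.1% of the 2272 within 10 kb of H3K4me3 and at 28.3% of the 7896 beyond. The difference was -13.2 points (-14.9 to -11.3). Olig2 in iOL was at 50.7% and 66.8% of them, a difference of -16.1 points (-18.4 to -13.8). Among the 122 iOL H3K27Ac peaks that met an unmarked region, Brg1 was at 4 of 33 near (12.1%) and 39 of 89 far (43.8%), a difference of -31.7 points (-44.4 to -13.6). Olig2 was at 20 of 33 near (60.6%) and 66 of 89 far (74.2%), a difference of -13.6 points whose interval included 0 (-32.3 to 4.21). Whether these differences depart from those at peaks without iOL RNAPII was not tested.

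**Figure D3:**
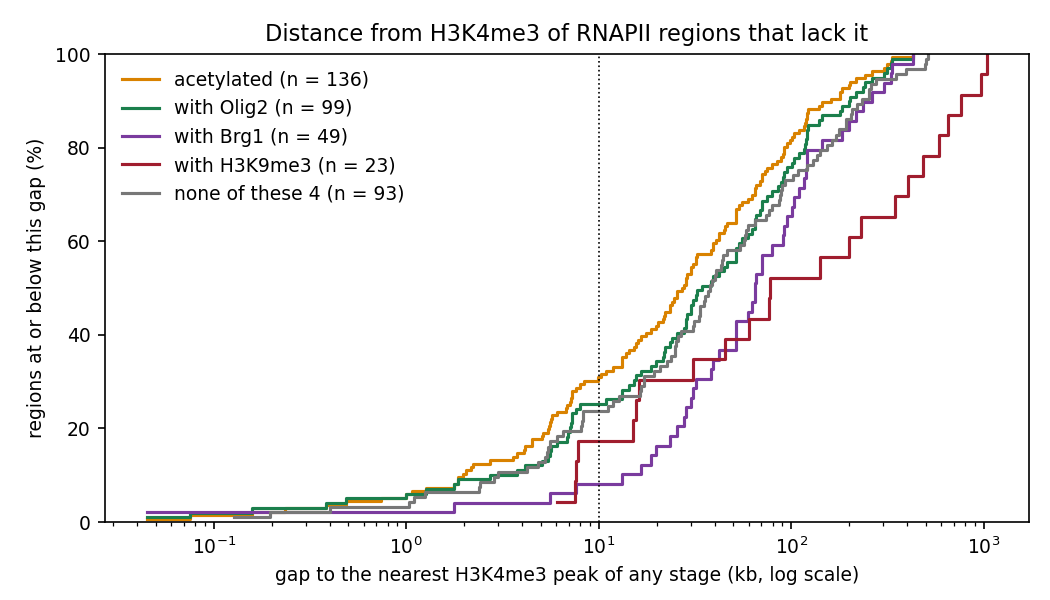
Cumulative share of unmarked regions (%) against the gap to the nearest H3K4me3 peak of any stage (kb, log scale), for regions with H3K27Ac, Olig2, Brg1, H3K9me3 or none of the 4 at any stage. A region can be in several lines, and the dotted line is at 10 kb. The line for Brg1 reaches 8.16% at 10 kb and that for acetylated regions 30.9%.

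The 5 unmarked regions farthest from H3K4me3 were all marked by H3K9me3 and had no H3K27Ac, Olig2 or Brg1. They were chr3:73892211-73893525 (1040 kb away, H3K9me3 in OPC), chrX:129471565-129473142 (973.1 kb, mOL), chr2:173336-174421 (766.7 kb, mOL), chrX:125146588-125147535 (652.1 kb, OPC) and chr2:187230672-187231700 (583.2 kb, mOL). RNAPII was called in iOL alone at the 3 that lay on chromosomes 2 and 3, in OPC alone at the first on X and at both stages at the second. Their widths, 948 to 1578 bp, were ordinary for the set.

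The 5 widest unmarked regions were mixed. The widest, chr2:191304480-191308877 (4398 bp), had RNAPII at both stages and H3K27Ac in iOL and mOL, 2042 bp from H3K4me3. Next was chr13:87426617-87429176 (2560 bp), called in iOL alone, with none of the other targets and 88.4 kb from H3K4me3. The third, chr10:75736973-75739481 (2509 bp), was called in iOL alone with H3K27Ac in iOL and mOL. The fifth, chr10:75759741-75762077 (2337 bp), was called at both stages with H3K9me3 in OPC and mOL. Between them in width, chr7:137727231-137729586 (2356 bp) had RNAPII and Olig2 in iOL and H3K27Ac at all 3 stages, 999 bp from H3K4me3.

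RNAPII regions with gaps of up to 10 kb were joined into runs. Of the unmarked regions, 212 stood alone (82.8%) and 44 were in a run of at least 2 (17.2%, 12.8 to 22.4), beside 78 of the 1284 marked regions (6.07%, 4.83 to 7.52). Of the 44, 37 were in a run with another unmarked region and 7 in a run with a marked one. Part of the share in runs came from 1 locus. Without the longest run the share was 12.4% of 242 (8.52 to 17.2), still above the 6.07% of marked regions.

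The longest run, chr8:20739119-20796621, held 14 unmarked regions over 57.5 kb and no marked one. RNAPII was called in iOL alone at 13 of them and in OPC alone at 1. Their widths were 407 to 1738 bp, the gaps between them 8 to 9323 bp with a median of 2249 bp, and RNAPII covered 21.8% of the span. No H3K27Ac, Brg1 or H3K9me3 peak of any stage lay within it, and 1 region, chr8:20787250-20788987, met Olig2 in OPC and iOL. The 14 regions lay 16434 to 46362 bp from H3K4me3. Within 100 kb on either side there were 5 H3K4me3 and 5 H3K27Ac peaks in iOL, whereas the run itself held none. Of the 2 other iOL RNAPII peaks there, 1 was a further unmarked region without H3K27Ac, chr8:20811531-20812281, and the other met H3K4me3. Repeat content, copy number and mappability of the run were not analysed here.

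**Figure D4:**
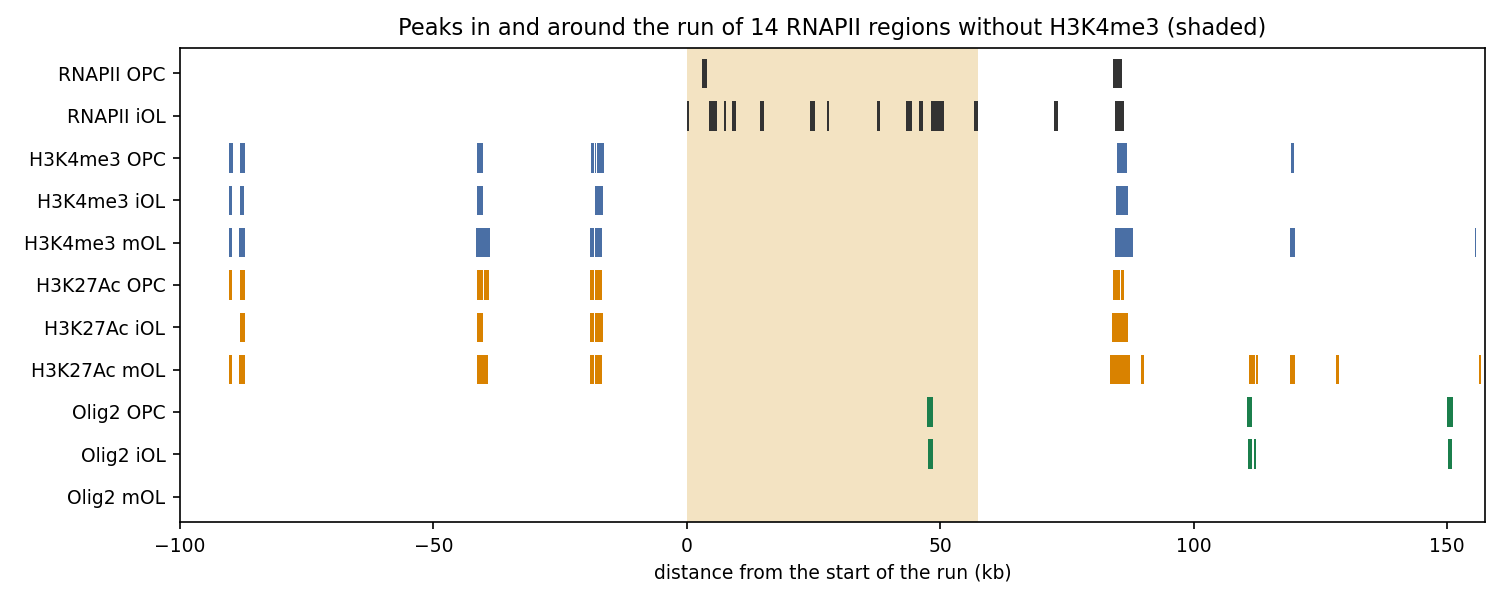
Peaks of RNAPII, H3K4me3, H3K27Ac and Olig2 (1 row per library) against the distance in kb from the start of the run of 14 unmarked regions, which is shaded, with 100 kb on either side. Each block is a peak drawn to scale. The shaded 57.5 kb holds 13 iOL and 1 OPC RNAPII peaks, 1 Olig2 peak in each of OPC and iOL and no H3K4me3 or H3K27Ac peak.

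The next runs were short. One on chromosome X, chrX:128994842-129010468, held 3 unmarked regions, 2 with RNAPII in OPC and 1 in iOL, at least 496340 bp from H3K4me3 and without any other target. A pair at chr1:44744973-44757179, called in iOL, was acetylated with Olig2 and Brg1 at both regions. Pairs at chrX:160442329-160452821 and chr10:75752242-75762077 were without H3K27Ac, and both regions of the chromosome 10 pair had RNAPII at both stages. In all there were 10 runs of exactly 2 unmarked regions.

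Chromosome X stood apart, a split that was chosen after the values had been seen. Of the 39 RNAPII regions on X, 26 were unmarked (66.7%, 49.8 to 80.9), against 3 to 29 unmarked regions and 7.81 to 29.3% on each of the 20 autosomes. None of the 26 met H3K27Ac, Olig2 or Brg1 at any stage, and 0 of 26 allows a share of up to 11.5% (exact bound 13.2%). Of the 230 autosomal unmarked regions, 136 were acetylated (59.1%, 52.5 to 65.5), 99 had Olig2 (43.0%) and 49 had Brg1 (21.3%). H3K9me3 was at 10 of the 26 (38.5%, 20.2 to 59.4) and at 13 of the 230 (5.65%, 3.04 to 9.47). Marked regions on X were acetylated as elsewhere, at 12 of 13. The sex of the pups, copy number, repeat content and mappability were not analysed here.

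**Figure D5:**
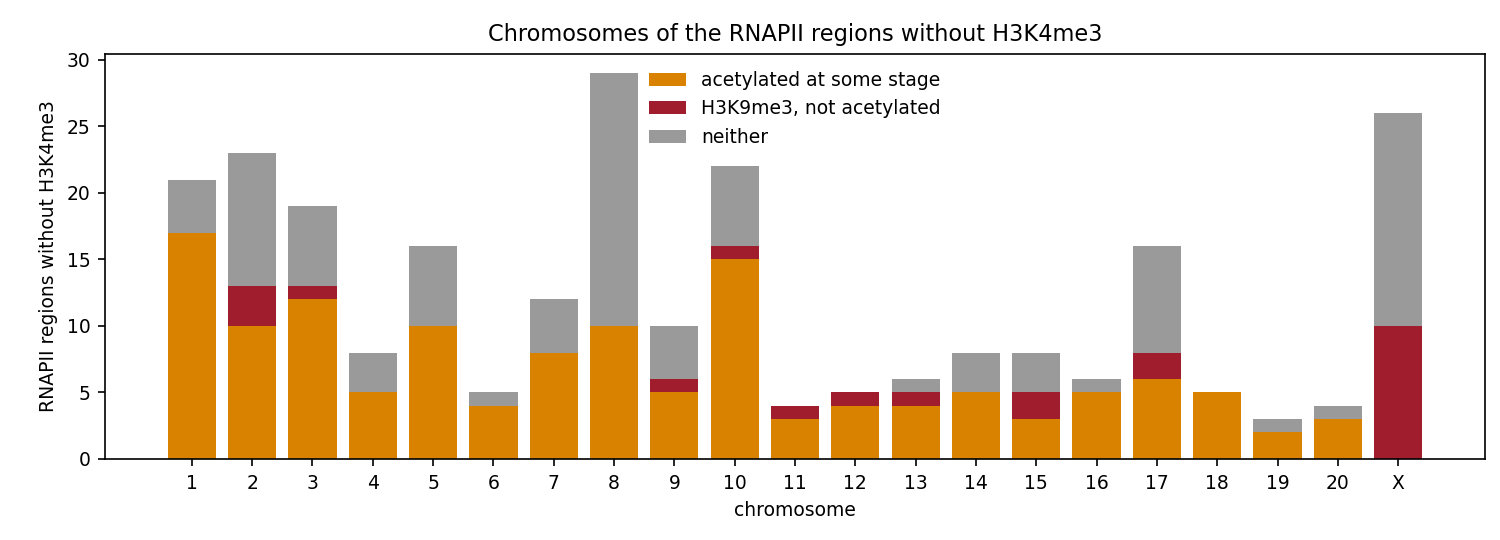
Number of unmarked regions on each chromosome, stacked as acetylated at some stage (orange), H3K9me3 without H3K27Ac (red) and neither (grey). Chromosome X has 26 unmarked regions and none acetylated, with H3K9me3 at 10, and chromosome 8 has 29, of which 14 are in 1 run.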

How the data were processed

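The submitters' processing notes name the peak caller MACS 1.4.0 and the genome build rn4. No source used here gives the aligner, the settings, any control library or any pooling. The deposited files hold peak positions in 3 columns (chromosome, start, end) and no other value, for 17 libraries in 6 targets. Groups were taken from the sample titles, and starts were made 1-based.

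Overlap meant at least 1 bp in common, and peaks were used as called. The joining, overlap, distance and run calculations were tested on simulated lists, and overlap counts were checked against bedtools 2.31.1. Python 3.11.15, numpy 2.4.6, pandas 2.3.3, scipy 1.17.1 and matplotlib 3.10.9 were used.

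The members, targets and comparisons were chosen with earlier results of these data known. Named regions were the 5 widest, the 5 farthest from H3K4me3, the 5 longest runs and up to 10 of the widest with Brg1 and Olig2 at one stage, of which a selection is printed. Alternatives were the wider 50% of each RNAPII list, H3K4me3 or other peaks within 1000 bp, mOL H3K4me3 ignored, overlap of 50%, equal H3K27Ac lists, runs of 5 or 20 kb and no unplaced sequence. Added after seeing the data were the split by acetylation, the comparison with acetylated peaks without RNAPII and its limit to wide peaks, distances within acetylated regions, 1 region per run, and leaving out chromosome X or the longest run. Mouse RNA profiles, which the design text mentions, were not analysed here.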

Additional observations from a re-analysis of the deposited data

How the results depend on the processing

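The absence of RNAPII or H3K4me3 rests on peak lists of unknown threshold and depth, so a weakly marked site counts as unmarked, and 1 library per stage gives no replicate error. Regions in one run or gene can share their source. The intervals treat regions as independent, so they are narrower than they would be with such sharing allowed for. Of 105 alternative values, 88 stayed within the interval of the reported share or within 1.5 times the reported count. Some of the 88 could not have changed. No RNAPII region lay on unplaced sequence, so leaving it out altered nothing, and equal H3K27Ac lists left the OPC list as it was.

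With the wider 50% of each RNAPII list, 151 regions were unmarked. H3K27Ac was then at 49.7% (OPC), 55.6% (iOL) and 62.9% (mOL), Olig2 at 36.4% (OPC) and 46.4% (iOL), and 12.6% of regions were in runs. Ignoring mOL H3K4me3 left 374 unmarked regions, with H3K27Ac at 50.5%, 55.9% and 64.7%. With overlap of 50% of the shorter interval, iOL Olig2 was at 30.5%. Runs with gaps of up to 5 kb held 10.2% of unmarked regions and those of up to 20 kb 22.7%, and without the longest run 12.4% were in runs of up to 10 kb. Without chromosome X, H3K9me3 in OPC was at 3.91%. The Brg1 difference between acetylated iOL sites with and without RNAPII changed sign among wide H3K27Ac peaks, to -4.59 points, and its interval then included 0. No paired analysis was possible because each target and stage had 1 library. The causes of these shifts were not tested.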

Other observations

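Joining unmarked regions across gaps of up to 200 kb gave 6 clusters of at least 4 regions, a grouping chosen after the values had been seen. None of the 6 held a marked RNAPII region. On chromosome 1, chr1:44590118-44969110 held 5 regions over 379.0 kb, all with RNAPII in iOL alone, of which 4 were acetylated and 4 each had Olig2 and Brg1. On chromosome 10, chr10:75732821-75773605 held 5 within 40.8 kb, 3 of them called at both stages and 3 acetylated, with Olig2 at 1, H3K9me3 at 1 and no Brg1. On chromosome 2, chr2:191181249-191308877 held 4, including the widest unmarked region, with 1 acetylated and neither factor. On chromosome 17, chr17:53648467-53735654 held 4 with no H3K27Ac, Olig2 or Brg1 and H3K9me3 at 1. The run on chromosome 8 gained 1 region and reached 15.

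The last cluster was on chromosome X, and it lay in a stretch, chrX:156276595-160665855, where 16 of the 26 unmarked regions on X fell within 4.39 Mb. Of the 16, 5 had RNAPII at both stages and 7 had H3K9me3. They were narrow, from 254 to 1211 bp with a median of 635.5 bp, and 2 marked RNAPII regions lay in the same stretch.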
